A study of Mus musculus with 9 samples.

Results

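Challenged Vegfr3iLECko conjunctiva was compared with challenged control conjunctiva, 3 pools against 3, across every gene tested. These are 6 of the 9 messenger RNA libraries of a mouse study of allergic eye disease, chosen by their labels alone. The conjunctiva is the thin mucosa on the inner side of the lids and over the sclera. Each library held conjunctiva pooled from 3 mice, and the 3 remaining libraries were unchallenged control pools, used here for reference levels.

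All mice were on the C57BL/6J background and carried loxP-flanked Vegfr3 alleles (Vegfr3 fl/fl). Knockout mice also carried Prox1CreERT2, a Cre recombinase that is switched on by tamoxifen in cells with an active Prox1 promoter. Controls were littermates with no Cre, so an effect of the Cre itself and an effect of the deletion cannot be told apart. Every group, controls included, was given tamoxifen in 5 intraperitoneal doses of 75 mg/kg at week 5. At week 6 all were immunized with 250 µg of ovalbumin, 0.3 µg of pertussis toxin and 5 mg of alum. From 14 days later the challenge was a daily 5 µL eye drop with 250 µg of ovalbumin into the right eye for 28 days, with saline into the other eye. The labels do not say which eye or which mice gave the unchallenged pools. There was no unchallenged knockout group, so a difference between genotypes under challenge cannot be told apart from one that was there before it. P-values measure the spread between pools.

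VEGFR3, encoded by Flt4, is the receptor on lymphatic endothelium for the growth factors VEGF-C and VEGF-D, and its signalling drives the growth and upkeep of lymphatic vessels. Lymphatic vessels carry fluid, antigen and antigen-presenting cells from the conjunctiva to the draining lymph nodes, where T cells are primed. In allergic eye disease, the conjunctiva takes up T cells, eosinophils and mast cells. The comparison asks what the challenged conjunctiva looks like once lymphatic cells have lost the receptor.

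Total counts were 16490050 to 22161800 in the challenged control pools and 17991911 to 24093007 in the knockout pools, and 15613 of 20603 genes had enough counts to be tested. Levels are CPM, counts scaled to the size of the library, after TMM scaling for library composition, and pools are always given in the order 1, 2 and 3. Values from unlike genes are not corrected for gene length and are compared only within a gene. Challenged control pool 1 stood apart on the first principal component, which held 36.9% of the variance, at -92.5 against -19.96 to 55.4 for the other libraries. It held high levels of acute inflammatory messages, among them Il1b at 355 CPM against 5.51 and 1.60 in the other control pools. Knockout pool 1 held a block of Meibomian gland messages that no other pool had. Medians of gene lists are log2 fold changes, and values without single pools stand beside many of them.

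No gene passed the edgeR quasi-likelihood test at a Benjamini-Hochberg adjusted p of 0.05, and the smallest adjusted p was 0.271. At an unadjusted p under 0.05 there were 1325 genes, or 8.49% of those tested, of which 708 (4.53%) were lower and 617 (3.95%) higher in the knockouts. Leaving out 1 library changed this count over all genes to between 734 (without knockout pool 3) and 1769 (without knockout pool 1). Without challenged control pool 1 it was 836. DESeq2, run as an alternative on the same counts, called 242 of 15334 genes (1.58%), with 111 lower (0.724%) and 131 higher (0.854%). In 2020 genes (12.9%) the pools of the groups did not overlap, 974 of them (6.24%) lower and 1046 (6.7%) higher in all 3 knockout pools. What follows therefore gives measured levels and counts of genes, and none of the single genes named passed the main test. All gene lists were chosen with earlier results of these data known. The shares over all genes given beside them are therefore a reference and not a test. Every tested member of the lists for T cells, cytotoxic cells and antigen presentation had a negative log2 fold change, and every tested member of the skeletal muscle list a positive one. Over all genes 7746 were negative and 7867 positive. All were also negative in the regulatory T cell, interferon gamma, antiviral interferon, MHC class I, macrophage and eosinophil lists. All were positive in the smooth muscle, adipocyte, Meibomian gland and cornea lists, so 1 sign throughout was not particular.

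The deleted gene came first as a check of the labels. Flt4 was at 13.4, 20.3 and 20.1 CPM in the challenged control pools and at 13.0, 5.07 and 5.32 in the knockout pools. Knockout pool 1 was thus at the level of challenged control pool 1, while pools 2 and 3 were below every control pool, the unchallenged ones at 18.5, 26.8 and 13.5 included. The log2 fold change was -1.20 with an SE of 0.40 (edgeR adjusted p = 0.468), 2.29-fold lower, and -1.78 without knockout pool 1. An exact two-sided permutation test over the 6 pools gave p = 0.1, the smallest that 20 splits can give. The counts are per gene, and the labels do not say which exons lie between the loxP sites, so transcripts that lack only those exons would still be counted. Blood vessels and other cells can also express Flt4.

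Prox1, the transcription factor that sets lymphatic endothelial identity and whose promoter drives the Cre, went the other way in level. It was at 6.31, 5.20 and 8.16 CPM in challenged controls and at 10.7, 7.55 and 14.2 in knockouts, with a log2 fold change of 0.73 and an SE of 0.31 (edgeR adjusted p = 0.569). The ratio of Flt4 to Prox1, a measure chosen after the values were seen, was 2.12, 3.90 and 2.47 in challenged controls and 1.21, 0.672 and 0.373 in knockouts. On this ratio all 3 knockout pools, pool 1 included, were below the challenged controls, by 4.06-fold in the geometric mean (exact two-sided permutation p = 0.1). As the ratio was chosen on these same values, its p and its separation are no independent check. Only the knockouts carried Prox1CreERT2, and whether it alters the Prox1 counts was not tested. Unchallenged controls were at 1.45, 3.39 and 1.53, above the knockouts as well. Against the lymphatic markers Lyve1, Mmrn1 and Reln in place of Prox1, Flt4 was 2.79, 2.33 and 2.91 times lower in the knockouts. These markers too were chosen after the values were seen. Knockout pool 1 was at 0.127, 0.216 and 0.281 on these ratios, against at least 0.214, 0.254 and 0.430 in challenged controls. The lowest unchallenged pool was at 0.168, 0.218 and 0.379, so for Mmrn1 knockout pool 1 lay beside it. In bulk tissue, fewer cells of a type and less RNA per cell cannot be told apart.

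**Figure D1:**
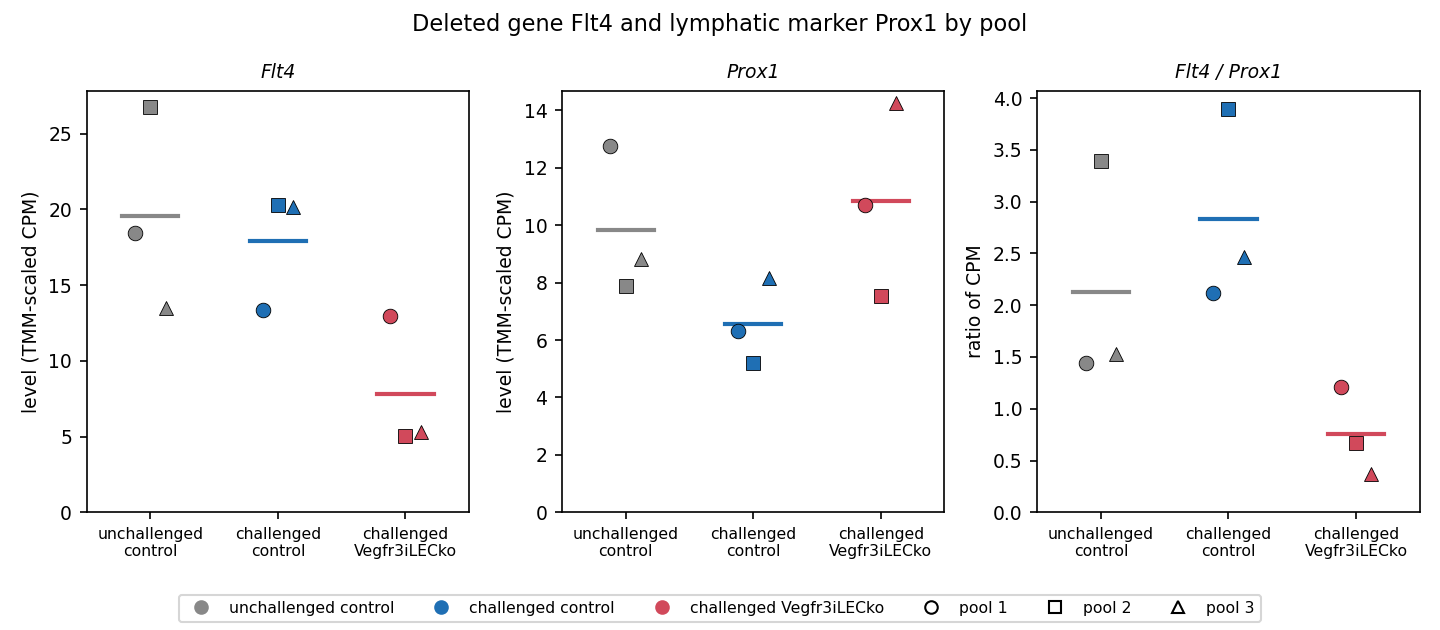
Levels of Flt4 and Prox1 in CPM and their ratio in the 9 pools, with group means as bars. Flt4 of knockout pool 1 (circle, 13.0 CPM) sits beside challenged control pool 1 at 13.4, whereas the ratio is lower in all 3 knockout pools than in every challenged control pool. The ratio was chosen after the values were seen.

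Of 14 VEGFR3 pathway genes tested, Flt4 included, 5 were higher and 9 lower. The median log2 fold change was -0.10 against 0.0027 over all genes tested, and 2 had an unadjusted p under 0.05 (8.49% of all genes). Without knockout pool 1 the median was -0.32 and 6 had such a p, as did 1769 of all genes. The ligands Vegfc and Vegfd were at 5.69, 9.37 and 7.02 CPM and at 22.5, 14.3 and 15.0 in challenged controls. In knockouts they were at 8.76, 5.60 and 5.60 and at 20.1, 16.4 and 22.2, so both overlapped between genotypes. Ccbe1, which helps to process VEGF-C, was at 13.9, 4.48 and 4.39 in challenged controls and 6.23, 2.06 and 2.80 in knockouts. Ptpn14, a phosphatase known to restrain VEGFR3, was at 35.9, 64.3 and 64.5 in challenged controls and at 86.5, 79.0 and 117 in knockouts. All 3 knockout pools were above the controls for Ptpn14, with a log2 fold change of 0.78 and an SE of 0.24 (edgeR adjusted p = 0.424), and unchallenged controls were at 101, 83.8 and 104.

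Markers of the lymphatic vessel wall were present in every knockout pool. Of 20 lymphatic endothelial genes, 10 were higher and 10 lower, with a median of 0.07, which ran from -0.01 (without knockout pool 1) to 0.36 (without challenged control pool 2). A group of 5 markers had all 3 knockout pools above the controls (6.7% of all genes did), namely Foxc2, Tie1, Sox18, Gata2 and Tbx1. Tie1 is also in the VEGF and angiopoietin list and Gata2 in the mast cell list, so they are not particular to lymphatic vessels. Foxc2, a transcription factor of lymphatic valves, was at 14.1, 20.6 and 16.1 CPM in challenged controls and at 28.8, 24.7 and 26.4 in knockouts, a log2 fold change of 0.65 with an SE of 0.19 (edgeR adjusted p = 0.376). Tie1, an endothelial receptor of the angiopoietin system, was at 11.3, 13.9 and 9.98 and at 24.4, 14.6 and 20.9. The hyaluronan receptor Lyve1 was at 58.8, 94.7 and 68.8 in challenged controls and at 102, 72.1 and 72.7 in knockouts, and Pdpn (podoplanin) was at 165, 135 and 187 and at 160, 179 and 146, so neither separated the genotypes. Ccl21a, the chemokine with which lymphatic vessels draw in dendritic cells and T cells, was at 64.8, 72.3 and 77.5 in challenged controls and at 69.5, 38.6 and 32.8 in knockouts. In Ccl21a, as in Flt4, pools 2 and 3 were low and pool 1 was not. This pattern was not particular to lymphatic genes. The summed fibroblast and matrix genes were at 10356, 13289 and 11193 in challenged controls and at 12191, 7001 and 5010 in knockouts. Near-identical copies of Ccl21a exist in the mouse genome, and how the counting shared reads among them is not given in the sources used here.

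Blood vessel genes leaned higher, largely through knockout pool 1. Of 16 blood endothelial genes 12 were higher, with a median of 0.91 that was 0.21 without that pool. Egfl7, secreted by endothelial cells, was at 2.78, 2.96 and 3.59 CPM in challenged controls and at 8.99, 4.84 and 7.43 in knockouts, while Plvap, a protein of fenestrated capillaries, was at 10.4, 11.2 and 5.36 and at 44.6, 12.3 and 17.8. Flt1, the decoy-like VEGF receptor, was the member of the smallest p on the low side, at 46.1, 53.4 and 73.3 in challenged controls and at 48.4, 30.4 and 20.5 in knockouts. The 12 VEGF and angiopoietin genes had a median of 0.05, and of -0.21 to 0.24 when 1 pool was left out.

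T cell genes were lower in the knockout pools. All 18 T cell genes tested had a negative log2 fold change, with a median of -1.87 against 0.0027 over all genes tested. In 17 of them all 3 knockout pools were below all 3 challenged controls, where 6.24% of all genes were. An unadjusted p under 0.05 was found in 16 (4.53% of all genes), and 11 were called by DESeq2 (0.724%). The summed level of the 18 was 359, 137 and 144 CPM in challenged controls and 54.8, 59.1 and 44.7 in knockouts, beside 48.7, 26.2 and 36.8 in unchallenged controls. The median was -1.36 without challenged control pool 1 and -2.04 without knockout pool 1.

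Cd8a, the CD8 co-receptor chain of cytotoxic T cells, was at 50.7, 23.2 and 28.8 CPM in challenged controls and at 3.43, 9.97 and 5.32 in knockouts. The groups were far apart, with a log2 fold change of -2.46 and an SE of 0.43 (edgeR adjusted p = 0.299), and knockout pool 1, whose Flt4 was near the control level, was the lowest of the 3. Lck, the kinase that starts T cell receptor signalling, was at 16.02, 9.41 and 13.2 in challenged controls and at 3.31, 3.60 and 3.60 in knockouts. Cd3d, a chain of the receptor complex, was at 9.83, 5.69 and 6.44 and at 2.10, 1.71 and 2.17. Cd4, the co-receptor of helper T cells, was at 19.6, 5.69 and 5.08 and at 3.00, 1.42 and 1.54, so both T cell branches had lower levels. Among the knockouts, pool 1 was thus the lowest for Cd8a and Lck, the middle one for Cd3d and the highest for Cd4. Its summed T cell level of 54.8 also lay between the others. One T cell receptor constant segment, Trgc2, met the rule by which the 12 lowest genes were named and was left out as a segment.

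Genes of cytotoxic and resident T cells were lower by about as much. All 16 had negative values and all 16 separated the groups, where 6.24% of all genes did in this direction. Of these, 15 were at an unadjusted p under 0.05 (4.53% of all genes) and 8 were called by DESeq2 (0.724%). The median was -2.15, and -1.79 without challenged control pool 1, when 10 had such a p. Itgae, the integrin chain CD103 that holds T cells and some dendritic cells in epithelium, was at 27.0, 22.1 and 20.3 CPM in challenged controls and at 6.54, 6.72 and 4.29 in knockouts. With a log2 fold change of -1.98 and an SE of 0.28 it was among the 3 genes that shared the smallest adjusted p of the comparison (edgeR adjusted p = 0.271), and unchallenged controls were at 5.55, 3.25 and 5.35. Ccl5, a chemokine made by activated T cells, was at 41.4, 48.4 and 43.1 in challenged controls and at 9.30, 18.5 and 8.69 in knockouts, with the 3 control pools close together. Gzma (granzyme A), a protease of cytotoxic granules, was at 145, 65.2 and 78.3 and at 8.49, 24.5 and 10.2. Gzmb showed the same order at 91.3, 22.7 and 41.0 against 5.33, 20.6 and 9.21, with knockout pool 2 just under the lowest control. Ifng, the cytokine interferon gamma, was at 21.0, 1.61 and 2.28 in challenged controls and at 0.117, 1.003 and 0.343 in knockouts.

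Regulatory T cell and checkpoint genes were lower with less separation. All 11 were negative with a median of -0.87, which was -0.30 without challenged control pool 1. Havcr2 (TIM-3), an inhibitory receptor, was at 19.4, 5.15 and 6.16 CPM in challenged controls and at 3.81, 3.18 and 2.57 in knockouts. Ctla4 was at 26.8, 1.25 and 1.25 and at 0.740, 1.003 and 0.457, so most of its difference lay in 1 control pool. Foxp3, the factor that defines regulatory T cells, overlapped between the groups at 1.92, 0.717 and 0.970 against 0.934, 0.649 and 0.400.

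**Figure D2:**
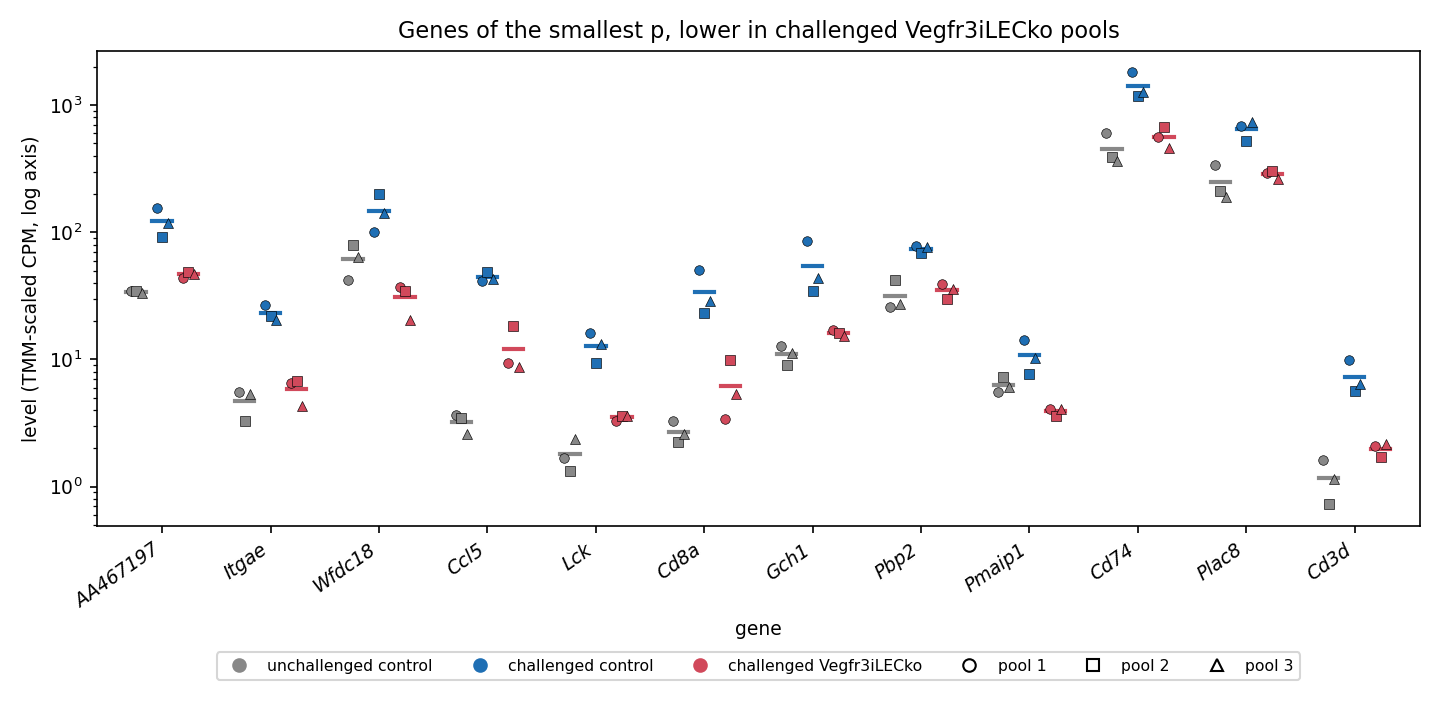
Levels in CPM (log axis) of the 12 genes of the smallest p among those lower in knockouts, with the 3 pools of each group as points and means as bars. The genes were chosen among those whose groups do not overlap, so the knockout pools lie below the challenged controls by construction, as in Ccl5 at 9.30, 18.5 and 8.69 against 41.4, 48.4 and 43.1.

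Genes that present antigen to helper T cells were lower too. All 18 genes of antigen presentation and dendritic cells were negative. Of these, 10 separated the groups (6.24% of all genes did in this direction), 11 were at an unadjusted p under 0.05 (4.53%) and 7 were called by DESeq2 (0.724%). The median was -1.29, and without challenged control pool 1 it was -0.78 with 7 at such a p. Cd74, the invariant chain that guides MHC class II, was at 1811, 1171 and 1271 CPM in challenged controls and at 558, 679 and 460 in knockouts. Its knockout pools lay near the unchallenged controls at 605, 390 and 363, and the log2 fold change was -1.33 with an SE of 0.27 (edgeR adjusted p = 0.299). H2-Eb1, an MHC class II chain, was at 756, 348 and 362 in challenged controls and at 161, 202 and 149 in knockouts. Xcr1, a receptor of cross-presenting dendritic cells, was at 3.40, 2.24 and 0.913 and at 0.584, 0.177 and 0.343. The dendritic cell gene Cd209a overlapped at 15.6, 7.44 and 2.68 against 13.1, 7.20 and 3.32, and Ccr7, the receptor that steers dendritic cells into lymphatic vessels, overlapped at 7.67, 1.84 and 2.68 against 1.32, 1.77 and 2.17.

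MHC class I genes, which nearly all cells carry, were lower by less. All 12 genes of class I and the immunoproteasome were negative with a median of -0.58, and 2 separated the groups (6.24% of all genes). The median was -0.34 without knockout pool 1 and -0.39 without challenged control pool 3. B2m, the shared light chain, was at 3283, 2124 and 2821 CPM in challenged controls and at 885, 1368 and 895 in knockouts. H2-K1, a heavy chain, was at 3381, 2457 and 3849 and at 1028, 2203 and 1609. The MHC heavy chains resemble each other closely, and how reads were divided among them is not given in the sources used here.

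Most antibody genes tested had lower levels in the knockouts. Of 8 B cell and plasma cell genes tested, 7 were negative, 6 separated the groups (6.24% of all genes), 5 were at an unadjusted p under 0.05 (4.53%) and 2 were called by DESeq2 (0.724%). The median of -3.38 ran from -4.23 without knockout pool 1 to -2.47 without knockout pool 2, and 2 had such a p without challenged control pool 1 or knockout pool 2. The IgM heavy chain gene Ighm was at 287, 94.0 and 35.3 CPM in challenged controls and at 17.4, 11.1 and 5.32 in knockouts, a log2 fold change of -3.62 with an SE of 0.87 (edgeR adjusted p = 0.338). Jchain, the link in polymeric antibodies, stood at 68.4, 17.8 and 15.3 and at 1.71, 0.708 and 0.172. Igkc, the kappa light chain, was at 248, 24.7 and 47.9 in challenged controls, and knockout pool 1 held 8.45, pool 2 0.118 and pool 3 no count, where 3 counts amount to 0.167 CPM. Xbp1 and Sdc1, which epithelium also expresses, did not separate the groups. Ms4a1, Cd79a, Pax5, Mzb1 and Tnfrsf17 had too few counts to be tested, and Ighe is not in the table used here.

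Genes induced by interferon gamma were lower on the median but overlapped between the groups. All 17 tested were negative with a median of -1.38, yet 2 separated the groups (6.24% of all genes) and DESeq2 called 0. At an unadjusted p under 0.05 there were 8 (4.53% of all genes). Without challenged control pool 1 the median was -0.46 and 0 had such a p, whereas without challenged control pool 2 it was -1.84 and 16 of 17 did. Without knockout pool 1 it was -1.13 with 0 and without knockout pool 2 -1.88 with 8. Irf1, a transcription factor of the response, was at 486, 229 and 267 CPM in challenged controls and at 146, 246 and 165 in knockouts. Gbp4, a guanylate-binding protein, was at 680, 78.4 and 214 and at 26.0, 65.3 and 44.9, so each knockout pool was below each control pool. Gbp2 was at 1782, 339 and 933 and at 172, 660 and 656, and Cxcl10, the chemokine that attracts T cells carrying CXCR3, was at 1059, 4.57 and 44.6 and at 6.27, 63.8 and 19.3. In both genes knockout pools 2 and 3 lay inside the range of the controls. Guanylate-binding protein genes are close copies of each other, and reads may be shared among them.

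Promoters are shown for Cxcl10, Gbp2 and H2-Eb1 because these genes stand for the interferon gamma and class II genes described here and hold the motifs searched for. They are the 250 bases before the start of the gene in RefSeq for build GRCm38.p6, at chr5:92348890-92349139 on the minus strand for Cxcl10, chr3:142620413-142620662 on the plus strand for Gbp2 and chr17:34305617-34305866 on the plus strand for H2-Eb1. Capitals mark matches, on either strand, to the interferon-stimulated response element (ISRE, searched as GAAA, any 2 bases and GAAA) and to the Y box of MHC class II promoters (searched as CTGATTGG). The Cxcl10 window holds an ISRE that begins 213 bases before the start and a Y box match 54 bases before it, the Gbp2 window an ISRE 59 bases before it and the H2-Eb1 window a Y box 62 bases before it.
Cxcl10: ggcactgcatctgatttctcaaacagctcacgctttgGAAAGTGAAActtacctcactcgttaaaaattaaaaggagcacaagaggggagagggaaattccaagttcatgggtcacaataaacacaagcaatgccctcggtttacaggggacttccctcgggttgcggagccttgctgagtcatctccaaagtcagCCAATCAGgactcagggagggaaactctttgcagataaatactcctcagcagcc
Gbp2: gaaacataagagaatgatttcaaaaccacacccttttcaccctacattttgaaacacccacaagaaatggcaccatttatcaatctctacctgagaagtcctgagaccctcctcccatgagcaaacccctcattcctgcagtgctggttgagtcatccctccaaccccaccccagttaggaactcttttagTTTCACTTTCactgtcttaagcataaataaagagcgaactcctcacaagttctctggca
H2-Eb1: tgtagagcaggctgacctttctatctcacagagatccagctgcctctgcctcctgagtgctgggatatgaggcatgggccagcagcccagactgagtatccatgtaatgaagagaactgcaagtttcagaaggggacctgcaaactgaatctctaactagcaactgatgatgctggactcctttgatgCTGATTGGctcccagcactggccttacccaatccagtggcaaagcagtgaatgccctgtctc

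Among 27025 genes with a RefSeq window, 3.463% held the ISRE and 4.433% the Y box. Among the 11843 tested genes with a window these shares were 3.445% and 6.096%. Of the interferon gamma genes with a window, 8 of 11 held the ISRE. The antiviral interferon genes held it in 7 of 13, and the antigen presentation genes held the Y box in 2 of 13. The Y box was also in 3 of 11 interferon gamma genes, 3 of 11 MHC class I genes and 3 of 16 cell cycle genes, so it was not particular to class II genes. The GAS motif, searched as TTCNNNGAA, was in 8.13% of all genes with a window, in 7.287% of the tested ones and in 5 of the 11 interferon gamma genes. These are letter matches in a window and do not show that a factor bound there.

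Antiviral interferon genes overlapped throughout. All 16 were negative with a median of -0.75, but none separated the groups, none had an unadjusted p under 0.05, edgeR and DESeq2 called 0, and the median was -0.14 without challenged control pool 3 and -0.43 without knockout pool 1. Without knockout pool 2 it was -1.43 with 8 of 16 at such a p, and without challenged control pool 2 -1.12 with 5. Ifit1 was at 538, 72.6 and 445 CPM in challenged controls and at 52.0, 233 and 115 in knockouts. Oas2 was at 82.0, 29.1 and 118 and at 24.6, 54.8 and 24.1. The control range was wide in both genes, with control pool 2 at the low end.

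Allergy genes gave a mixed picture. Of 20 type 2 genes tested 15 were negative, with a median of -0.44, which was -0.07 without challenged control pool 1. Arg1, the arginase of macrophages in type 2 responses, was at 738, 260 and 311 CPM in challenged controls and at 143, 151 and 130 in knockouts. It was the only member of the 20 that separated the groups, where 6.24% of all genes did in this direction. Its log2 fold change was -1.63 with an SE of 0.42 (edgeR adjusted p = 0.348). Alox15, a lipoxygenase of eosinophils and epithelium, was at 1279, 787 and 1899 and at 340, 928 and 381, with knockout pool 2 within the control range. The eotaxin Ccl11 was at 88.6, 65.0 and 71.1 and at 83.6, 63.5 and 38.4, and the epithelial alarmin Il33 was at 159, 148 and 112 and at 177, 118 and 85.3. Il4 stayed at or below 1.30 in every one of the 6 pools. The low-count filter removed Il5 and Il13, and Il25 was absent from the counts, so these cytokines were not compared. Also absent were the eosinophil genes Prg2, Epx, Ear1 and Ear6 and the mast cell gene Mcpt8. The filter further removed the mast cell genes Ms4a2, Tpsab1 and Mrgprb2. The 6 eosinophil genes tested had a median of -1.43 (-2.02 to -1.06 when 1 pool was left out), and none of them separated the groups. The 8 mast cell genes tested had one of -0.33 (-0.84 to -0.01). Siglecf, the eosinophil surface lectin, was at 9.59, 4.26 and 2.51 in challenged controls and at 2.80, 2.83 and 0.572 in knockouts.

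Myeloid and acute inflammatory genes rested more on single pools. All 16 macrophage and monocyte genes were negative with a median of -0.62, and 4 separated the groups (6.24% of all genes). At an unadjusted p under 0.05 there were 6 (4.53% of all genes), and without challenged control pool 1 the median was -0.37 with 0 such members. Ms4a7, a macrophage surface protein, was at 15.2, 9.502 and 7.70 CPM in challenged controls and at 6.97, 3.07 and 3.32 in knockouts, and C1qc was at 120, 105 and 82.4 and at 79.1, 69.5 and 81.7. Of 16 genes of the IL-1, IL-17 and IL-36 families and their targets 14 were negative with a median of -1.41, which became 0.22 without challenged control pool 1 and -2.19 without knockout pool 1. Il1a, an alarm cytokine of epithelium, separated the groups at 108, 23.7 and 37.1 against 14.6, 13.8 and 9.95. Tnf did so too, at 27.2, 12.0 and 12.4 against 4.83, 6.25 and 9.83, whereas Cxcl1 and Ptgs2 were high in challenged control pool 1 alone, at 232 and 108. The 6 neutrophil genes had a median of -0.79, which was 1.17 without that pool and -2.47 without knockout pool 1. The 13 complement genes had a median of -0.47 (-0.78 to -0.27 when 1 pool was left out) and the 11 genes of lymphoid tissue organisation one of -1.21, which was -0.37 without it. Ltb, a lymphotoxin chain, was at 12.7, 8.11 and 8.95 in challenged controls and at 5.29, 5.49 and 5.37 in knockouts.

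**Figure D3:**
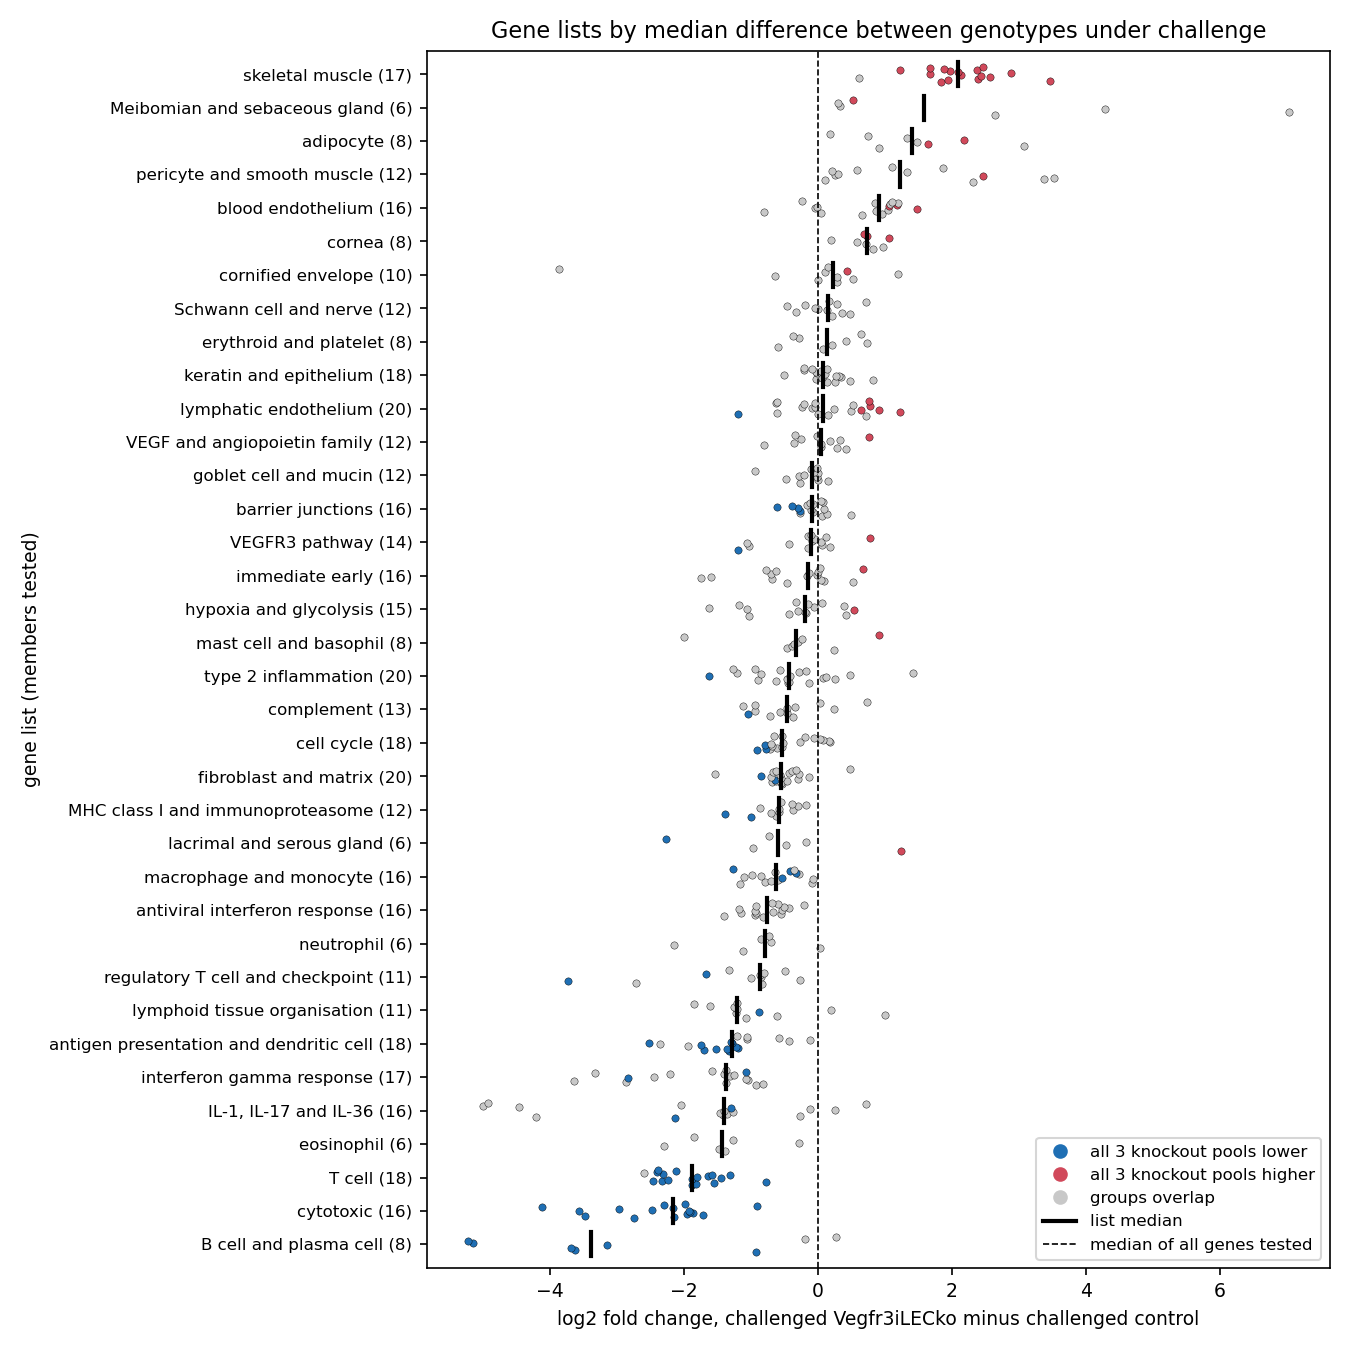
Log2 fold changes of the tested members of 36 gene lists, ordered by list median (bar), with members whose 3 knockout pools lie all below (blue) or all above (red) the challenged controls. T cell and cytotoxic members sit almost wholly on the blue side at medians of -1.87 and -2.15, and skeletal muscle members on the red side at 2.10.

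Among the 12 genes of the smallest p on the low side, several belong to no immune list. AA467197, also known as Nmes1, was at 157, 91.8 and 118 CPM in challenged controls and at 43.9, 48.8 and 47.2 in knockouts, with unchallenged controls at 34.6, 34.3 and 33.5. Its log2 fold change of -1.39 had an SE of 0.19 (edgeR adjusted p = 0.271), and the knockout pools were close together. Wfdc18, a whey acidic protein family member, was at 101, 200 and 142 in challenged controls and at 37.3, 34.8 and 20.5 in knockouts. For Wfdc18 the knockout pools were also below the unchallenged controls at 42.0, 79.1 and 63.5. Gch1, the first enzyme of tetrahydrobiopterin synthesis, was at 86.2, 34.7 and 43.6 and at 17.1, 16.2 and 15.2. Pmaip1 (Noxa), a promoter of cell death, was at 14.4, 7.66 and 10.3 and at 4.05, 3.60 and 4.12, below the unchallenged controls at 5.60, 7.27 and 6.04 as well. Plac8 and Pbp2 completed the 12, at 260 to 303 and 29.96 to 39.1 in knockouts against 526 to 739 and 69.3 to 77.8 in challenged controls. DESeq2 called all 12, where it called 0.724% of all genes lower. The 12 were chosen by a small p on the same counts, so this is no independent check.

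Skeletal muscle genes had positive differences throughout. All 17 tested were positive with a median of 2.10, and 16 had all 3 knockout pools above all 3 challenged controls, where 6.7% of all genes did. An unadjusted p under 0.05 was found in 16 (3.95% of all genes), and DESeq2 called 13 (0.854%). The summed level of the 17 was 1158, 840 and 421 CPM in challenged controls and 3545, 2840 and 4426 in knockouts, beside 1905, 6677 and 3340 in unchallenged controls. No defining marker was at 0 in any pool, and Myh7, the slow myosin heavy chain, was the 1 member that overlapped, at 10.9, 8.38 and 0.856 against 3.04, 11.6 and 16.5. The median was 1.83 to 2.46 when any single library was left out. Eyelid muscle lies next to the conjunctiva. Between the groups the muscle sum was higher in knockouts, where T cell and antigen presentation genes were lower. Within the challenged controls pool 1 had the highest muscle sum and also the highest T cell sum, at 359 CPM. Within the knockouts pool 3 had the highest muscle sum and the lowest T cell sum, at 44.7. The part of muscle in these differences was not tested.

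Tcap, a protein of the sarcomere's Z disc, was at 39.5, 26.0 and 21.3 CPM in challenged controls and at 100.2, 171 and 125 in knockouts. The log2 fold change of 2.19 had an SE of 0.34 (edgeR adjusted p = 0.286), and unchallenged controls were at 81.2, 181 and 147. Tnni2 and Tnnt3, troponins of fast muscle, were at 34.9, 42.1 and 26.1 and at 41.1, 46.7 and 27.3 in challenged controls. In knockouts they were at 137, 156 and 262 and at 174, 189 and 318, so every knockout pool was above every challenged control pool. Des (desmin), Lmod2, Hspb7, Myom1 and Synpo2l, which also serve muscle, were likewise above the controls in all 3 pools. Pfn2, an actin-binding profilin, differed by less but evenly, at 17.0, 19.9 and 16.5 in challenged controls and at 33.0, 29.0 and 33.0 in knockouts, with an SE of 0.15 on a log2 fold change of 0.83 (edgeR adjusted p = 0.299). Unchallenged controls held Pfn2 at 38.6, 39.9 and 36.2. Ndrg2, Usp2 and Nctc1 were the other 3 of the 12 genes of the smallest p on the high side. DESeq2 called all 12, where it called 0.854% of all genes higher, and here too the genes were chosen by a small p on the same counts.

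**Figure D4:**
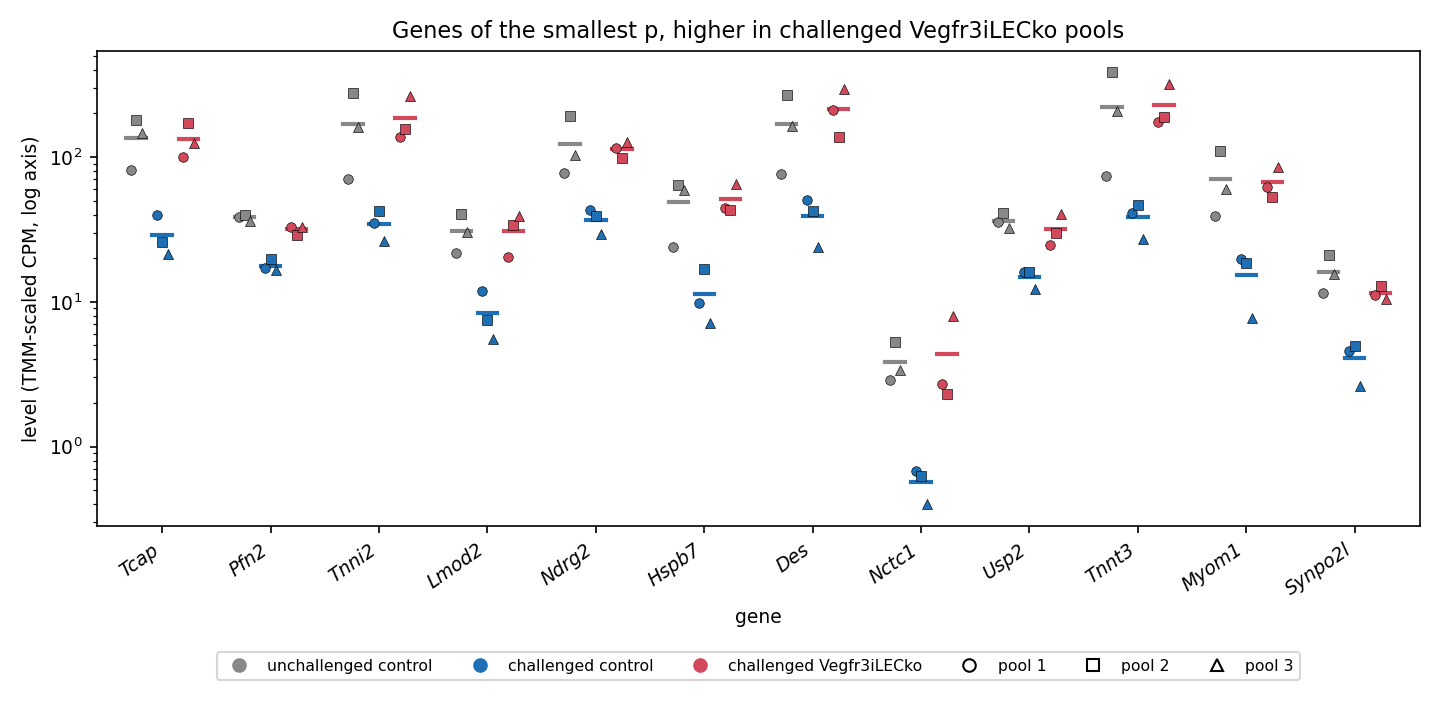
Levels in CPM (log axis) of the 12 genes of the smallest p among those higher in knockouts, drawn as for the lower genes. The challenged controls form the lowest group in each gene, as in Tcap at 39.5, 26.0 and 21.3 against 100.2, 171 and 125, and the unchallenged controls lie near the knockouts.

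Other tissues next to the conjunctiva differed between single pools. The 6 Meibomian gland genes tested had a median of 1.58, which was -0.62 without knockout pool 1. Elovl4, which makes very long fatty acids for tear lipid, was at 150 CPM in knockout pool 1 and at 0.236 and 0.114 in pools 2 and 3. Awat2, Scd3 and Elovl3, too unevenly counted to be tested, were at 74.4, 41.3 and 40.1 in that pool and at or below 0.762 in every other library. Smooth muscle followed the same pool in part: the 12 pericyte and smooth muscle genes were all positive with a median of 1.22, and 0.32 without knockout pool 1. Acta2 was at 218, 7.49 and 35.2 in knockouts and at 16.9, 17.2 and 18.4 in challenged controls. All 8 adipocyte genes were positive with a median of 1.40, which was 0.75 without knockout pool 1, and Plin4, a lipid droplet protein, separated the groups at 10.7, 6.01 and 3.76 against 24.1, 21.1 and 47.7. The part of these tissues in the other differences was not tested. Without knockout pool 1 the T cell genes had a median of -2.04, with 16 of 18 at an unadjusted p under 0.05. The skeletal muscle genes then had a median of 1.98, with 15 of 17 at such a p.

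**Figure D5:**
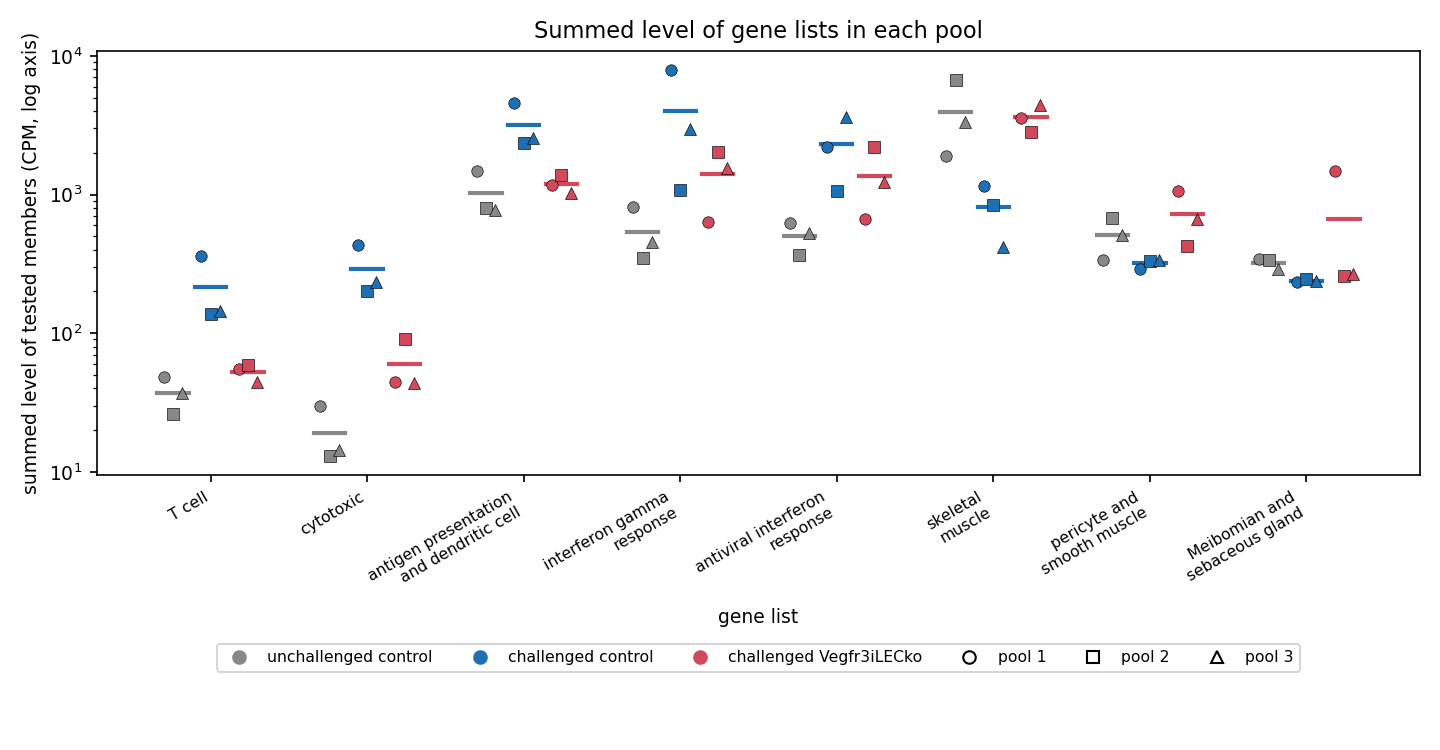
Summed CPM (log axis) of the tested members of 8 gene lists in each pool, with group means as bars. The T cell sums of the knockouts (44.7 to 59.1) lie below those of the challenged controls (137 to 359) and their muscle sums above (2840 to 4426 against 421 to 1158), while the interferon sums overlap and the Meibomian sum is high in knockout pool 1 alone.

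The 18 keratin and epithelial genes had a median of 0.08 (-0.15 to 0.24 when 1 pool was left out), with none separating the groups. The 12 goblet cell and mucin genes had one of -0.08, which was -0.56 without knockout pool 1 and 0.29 without challenged control pool 2. Muc5ac, the gel-forming mucin of goblet cells, ran from 46.8 to 889 CPM over the challenged controls and from 112 to 834 over the knockouts, a range within each group too wide to order them. Of 16 junction genes 10 were negative and 6 positive, 4 were lower in all 3 knockout pools (6.24% of all genes), and 1 had an unadjusted p under 0.05 (4.53%). Dsg3, a desmosomal cadherin, was at 1033, 759 and 880 in challenged controls and at 608, 653 and 493 in knockouts, with unchallenged controls at 610, 655 and 519. The 20 fibroblast and matrix genes had a median of -0.55, which was -1.02 without knockout pool 1. Tnc (tenascin C), a matrix protein of inflamed tissue, was at 83.4, 59.0 and 82.5 and at 58.5, 46.9 and 19.2. Mki67, carried by dividing cells, was at 99.9, 158 and 188 and at 84.0, 99.2 and 55.2, lower in all 3 knockout pools. The 18 cell cycle genes had a median of -0.53, with 1 at an unadjusted p under 0.05 (4.53% of all genes). The median was -0.25 without challenged control pool 3. Without challenged control pool 1 it was -0.83, with 5 at such a p.

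The challenged controls entered both this comparison and the reference to unchallenged controls, so a gene that was high by chance in those 3 pools would move in both. For Cd8a the unchallenged level was 3.30, 2.26 and 2.57 CPM, for Gzma 4.50, 1.38 and 1.31, and for Gch1 12.7, 9.07 and 11.3. In Cd8a, Gzma and Gch1 each challenged knockout pool was above the highest unchallenged pool and below the lowest challenged control. Cd8a and Gch1 were named among genes whose groups do not overlap, so the second part holds by construction. The lowest knockout pool for Cd8a, at 3.43, was close to the highest unchallenged one. Other named genes differed: Itgae and Cd74 overlapped the unchallenged pools, and Wfdc18 and Pmaip1 lay below them.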

How the data were processed

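The authors deposited raw counts of reads per gene symbol; per the submitters' processing notes they used HISAT2, Bowtie2 and DESeq2 with build mm39. Versions, the counting program, the annotation and the strand setting were not given in the sources used here. No coordinates come from the counts, and promoters are from RefSeq for GRCm38.p6.

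Low counts were removed with filterByExpr on the 3 groups. All 9 libraries shared 1 quasi-likelihood fit in edgeR 4.0.16 (R 4.3.3) with TMM scaling, two-sided, with Benjamini-Hochberg adjustment over 15613 genes at 0.05. The biological coefficient of variation was 31.7%. Alternatives used limma 3.58.1 and DESeq2 1.42.0. The script was tested on simulated data. No library was a copy of another.

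Named genes were Flt4 and Prox1; in each direction genes that passed, filled to 12 by the smallest p among genes whose groups did not overlap and whose mean was at least 1 CPM; and per list the 3 members of the smallest p. Other genes were chosen after their values were seen. Members and all 37 lists were chosen with earlier results of these data known; the melanocyte list had too few tested genes to describe. Counting floors (3 counts) cover counting error only.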

Additional observations from a re-analysis of the deposited data

How the results depend on the processing

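With no gene passing in the edgeR fit, the count of genes called depended on the test: DESeq2 called 242 (111 lower, 131 higher) and edgeR with the replicate block over all 9 libraries called 22 (16 lower, 6 higher), among them AA467197, Itgae, Wfdc18, Ccl5, Ighm, Jchain, Igkc, Ptprc and Itgal, while edgeR with other scaling or no filter, limma voom, the fit of 6 libraries with or without the replicate block, and each fit that left out 1 library called 0. The labels do not say what a replicate number marks. Same-numbered control and knockout pools correlated at 0.339, -0.147 and 0.334, and pools of unlike number at -0.514 to 0.333. These values do not settle whether the numbers pair the pools, and the main fit did not take them as paired. Levels of the Y-linked genes Ddx3y, Kdm5d, Eif2s3y and Uty, given below, were lowest in pool 3 of every group. What this shared order marks was not tested. At an unadjusted p under 0.05 there were 2551 genes with the replicate block, and 734 (without knockout pool 3) to 1769 (without knockout pool 1) when 1 library was left out, with 836 without challenged control pool 1.

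Of 288 list medians under other settings 282 moved by less than the spread between pools. The exceptions were lymphoid tissue organisation at -0.67 (limma voom), cornified envelope at 0.40 (replicate block, 6 libraries) and Meibomian gland at 3.32 (no filter), 3.39 (DESeq2), 0.52 (6 libraries) and 0.51 (replicate block, 6 libraries). Leaving out 1 library gave medians of 0.21 to 1.19 for blood endothelium, -1.43 to -0.37 for lymphoid tissue organisation, -0.78 to -0.27 for complement, -0.13 to 0.23 for cornified envelope, -1.02 to -0.26 for fibroblast and matrix, -0.62 to 3.17 for Meibomian gland, -0.017 to 0.25 for Schwann cell and nerve and -0.83 to 0.48 for erythroid and platelet genes. Of 117 genes, these changed sign: S100a8 (0.42 with limma voom, 0.024 with the replicate block over 9 libraries, -2.54 to 1.90 leaving out 1 library), and, leaving out 1 library, Il2ra (-3.22 to 0.048), Icam1 (-2.08 to 0.47) and Hdc (-2.85 to 0.20), each positive without challenged control pool 1, as S100a8 was, and Elovl4 (-1.11 to 7.78) and Far2 (-1.40 to 4.99), negative without knockout pool 1. The cause was not tested beyond the library left out.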

Other observations

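Of 8 genes of the corneal surface, all were positive with a median of 0.73. In 3 of them all knockout pools were above the challenged controls (6.7% of all genes). DESeq2 called 1 (0.854% of all genes), and 3 were at an unadjusted p under 0.05 (3.95% of all genes). Aldh1a1, an aldehyde dehydrogenase of ocular surface epithelium, was at 52.0, 65.0 and 57.5 CPM in challenged controls and at 88.5, 79.6 and 112 in knockouts (edgeR adjusted p = 0.338), with unchallenged controls at 119.6, 97.8 and 119.8. Clu (clusterin), a secreted chaperone, was at 94.6, 187 and 173 and at 219, 298 and 240.

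Ptprc and Itgal were chosen after their values were seen. Ptprc (CD45), carried by nearly all leukocytes, was at 217, 65.2 and 51.2 CPM in challenged controls and at 46.5, 24.9 and 17.5 in knockouts. Itgal, a leukocyte integrin chain, was at 62.1, 22.2 and 20.6 and at 16.9, 7.90 and 7.15. Within each group pool 1 was the highest in both genes.

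Uty, a Y-linked gene, was at 42.8, 22.02 and 8.77 CPM in unchallenged controls, at 34.7, 19.3 and 8.16 in challenged controls and at 24.4, 17.8 and 6.23 in knockouts, so pool 1 was the highest and pool 3 the lowest in each group. Of the Y-linked genes Ddx3y, Kdm5d and Eif2s3y, pool 3 was the lowest in each group too, but in knockouts Ddx3y was at 64.4, 65.6 and 24.6 and in challenged controls Kdm5d at 32.7, 33.8 and 16.3, with pool 2 the highest.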
